A study of Mus musculus with 6 samples.

Results

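The lysosomal enzymes and membrane proteins described here are 40 genes, chosen by symbol: 9 proteases, 10 glycosidases, 5 sulfatases, 8 lipid enzymes and cofactors, 6 membrane proteins and the transcription factors Tfeb and Tfe3. All 40 were found, each with 1 entry, among the 46072 genes of the count tables. Mouse embryos with 4 cells had their RNA sequenced in 6 Smart-Seq2 libraries, a method that copies full-length polyadenylated RNA from very small samples. In 3 libraries the zygotes had been injected with siRNA against Son, which encodes a splicing and nuclear speckle protein, and 3 libraries were labelled control. The labels do not give the mouse strain, what the control embryos received or how many embryos went into a library. They also do not say whether the libraries of a group came from separate collections, so a p-value here reflects the spread among 6 libraries, which may be technical.

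Lysosomes are acidic organelles in which proteases, glycosidases, sulfatases and lipid-degrading enzymes break down material delivered by endocytosis and autophagy. Most of the soluble enzymes are tagged with mannose phosphate in the Golgi and carried to the lysosome by receptors, while heavily glycosylated membrane proteins such as Lamp1 and Lamp2 line the organelle. Tfeb and Tfe3 are related transcription factors that activate many lysosomal genes through an E-box-containing motif in their promoters. In the mouse embryo, autophagy after fertilisation degrades maternal proteins.

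Total estimated counts were 104634855 to 114892490 units in the siRNA libraries and 107996833 to 118865650 units in the control libraries. Levels are given as CPM, the share of a library's counts after scaling by edgeR's TMM method, which sets the libraries on 1 scale through genes that differ little. Son had 41.03, 28.02 and 25.1 CPM in siRNA libraries 1 to 3, against 249, 322 and 332 CPM in control libraries 1 to 3. Its mean in the siRNA libraries was 10.4% of the control mean (log2 fold change -3.26, SE 0.272, edgeR adjusted p = 0.00991), so the libraries matched their labels. All 8 oocyte and early embryo markers were detected, with sums of 741 to 1100.2 CPM in siRNA libraries and 527 to 1151 CPM in control libraries, most of it Dppa3. Within the list Pou5f1 averaged 1.01 ± 0.320 CPM in siRNA libraries and 3.55 ± 1.99 CPM in control libraries (edgeR adjusted p = 0.177, DESeq2 adjusted p = 0.0225). Zp3 averaged 74.5 ± 11.5 CPM in siRNA libraries and 47.1 ± 12.9 CPM in control libraries, and Tcl1 22.1 ± 5.10 CPM in siRNA libraries and 10.4 ± 6.12 CPM in control libraries (edgeR adjusted p = 0.297 and 0.304). The groups did not overlap for these 3 genes. Of all genes tested, 11.6% were lower and 12.1% higher without overlap. The other markers of the list overlapped between groups. Of those, Khdc3 averaged 10.7 ± 3.55 CPM in siRNA libraries and 21.4 ± 13.3 CPM in control libraries. Padi6 averaged 19.1 ± 1.45 CPM in siRNA libraries and 26.6 ± 8.38 CPM in control libraries. Dppa3, Nlrp5 and Ooep had higher means in siRNA libraries. The part of such differences in the results on lysosomal genes was not tested. Macrophages and blood cells, which are rich in lysosomes, were represented by 3 of 8 markers with sums of 6.78 to 7.43 CPM in siRNA libraries and 4.14 to 12.3 CPM in control libraries, most of it Hba-a1, a haemoglobin gene. Csf1r was listed in control library 1 only, at 1.36 CPM. Lyz2 had 0, 0.248 and 1.37 CPM in siRNA libraries 1 to 3 and 1.12, 0 and 0 CPM in control libraries 1 to 3. Ptprc, Tyrobp, Fcer1g, Adgre1 and Hbb-bs were at 0 in all 6 libraries. Cumulus and granulosa markers summed to at most 0.872 CPM and sperm markers to at most 1.14 CPM in any library, with Inha, Fshr and Foxl2 at 0 throughout. Mitochondrial genes took 13.2% to 17.5% of the counts in siRNA libraries and 9.79% to 15.98% in control libraries.

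The promoter windows of the members were searched for the E-box that Tfeb and Tfe3 recognise. The letters searched were the E-box core CACGTG and the extended form TCACGTG, which contains it, on both strands of RefSeq windows of GRCm38.p6 running from 250 bases before to 50 bases after each annotated start. RefSeq windows were matched for 35 members, and Npc1, Ctsh, Asah1, Galns and Ctsb had none. TCACGTG was present in 10 of the 35 members (28.6%), against 4.29% of all 27025 genes with a window. CACGTG was present in 12 members (34.3%), against 8.09% of all genes. The 10 members with TCACGTG were Ctsa, Cln3, Ctsd, Mcoln1, Lamp1, Glb1, Naglu, Sgsh, Arsa and Gla, and Ctsl and Ctsf had CACGTG only. The windows of Man2b1, Ctsc, Npc2, Gm2a, Lamp2, Psap, Gusb, Tfeb and Tfe3 held neither. CACGTG occurred more than once in a window of Ctsa, Lamp1, Gla, Ctsd, Cln3 and Mcoln1. The windows below belong to the members past the threshold, Ctsa and Man2b1, and to Lamp1 and Gla. They are written 5′ to 3′ along the gene's strand with CACGTG in capitals, and a match is a description of the letters, not evidence of binding.
Ctsa, chr2:164833523-164833822, plus strand, the second of its 2 windows: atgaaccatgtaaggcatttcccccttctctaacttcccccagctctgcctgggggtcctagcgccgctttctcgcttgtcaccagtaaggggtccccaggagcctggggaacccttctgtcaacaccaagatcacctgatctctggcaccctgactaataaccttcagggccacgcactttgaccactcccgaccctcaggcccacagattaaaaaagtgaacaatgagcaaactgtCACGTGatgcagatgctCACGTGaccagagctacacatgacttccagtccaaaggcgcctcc
Man2b1, chr8:85083019-85083318, plus strand: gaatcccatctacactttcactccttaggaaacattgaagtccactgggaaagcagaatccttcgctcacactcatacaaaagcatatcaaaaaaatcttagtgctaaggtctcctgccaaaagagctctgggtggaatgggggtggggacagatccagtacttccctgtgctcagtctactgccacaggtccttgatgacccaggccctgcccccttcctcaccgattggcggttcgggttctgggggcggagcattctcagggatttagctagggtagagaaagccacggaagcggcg
Lamp1, chr8:13158911-13159210, plus strand: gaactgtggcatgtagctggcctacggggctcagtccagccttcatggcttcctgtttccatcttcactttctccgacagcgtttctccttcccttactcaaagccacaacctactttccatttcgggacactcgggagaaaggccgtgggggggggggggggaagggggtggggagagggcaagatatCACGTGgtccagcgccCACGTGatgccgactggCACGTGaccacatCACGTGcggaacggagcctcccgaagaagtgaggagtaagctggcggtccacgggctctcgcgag
Gla, chrX:134600956-134601255, minus strand: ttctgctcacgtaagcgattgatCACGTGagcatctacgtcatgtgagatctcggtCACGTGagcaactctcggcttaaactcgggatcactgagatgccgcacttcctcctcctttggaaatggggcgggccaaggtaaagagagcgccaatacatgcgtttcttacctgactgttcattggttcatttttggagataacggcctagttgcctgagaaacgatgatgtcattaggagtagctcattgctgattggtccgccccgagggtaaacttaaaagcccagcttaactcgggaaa
In the printed Ctsa window the cores began at positions -12 and 6, counted from 1 at the annotated start and from -1 before it. The other Ctsa window, chr2:164832622-164832921, spans the start of the gene given below and held neither CACGTG nor TCACGTG. In Lamp1 the 4 cores began at positions -61, -45, -28 and -15, and in Gla the 2 cores began at -227 and -194.

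In level the members differed from each other by orders of magnitude. By mean over all 6 libraries, 7 members were above 100 CPM, 8 between 10 and 100 CPM, 14 between 1 and 10 CPM and 11 under 1 CPM. Per kilobase of exonic length, which allows genes to be ranked, the order was Ctsc, Ctsl, Npc2, Gm2a and Lamp2. Ctsc averaged 306 ± 34.6 CPM per kb in siRNA libraries and 498 ± 70.9 CPM per kb in control libraries (SD, n = 3 each). Ctsl followed with 177 ± 15.1 CPM per kb in siRNA libraries and 300.2 ± 95.7 CPM per kb in control libraries. Npc2, with 137 ± 12.1 and 199.9 ± 19.1 CPM per kb in siRNA and control libraries, and Gm2a, with 136 ± 27.3 and 192 ± 33.9 CPM per kb, were neighbours whose levels did not differ beyond their spread. Lamp2 came next with 52.3 ± 6.44 CPM per kb in siRNA libraries and 71.8 ± 2.53 CPM per kb in control libraries. The lowest was Mcoln1, at 0.0157 CPM per kb over all libraries. A floor of 3 read pairs' worth of counts was taken as 12 units. That is 0.0906 to 0.103 CPM in siRNA libraries and 0.106 to 0.125 CPM in control libraries, so the floor was not equal between groups. It was reached by 40, 37 and 38 members in the siRNA libraries and by 35, 36 and 33 members in the control libraries. The share of all genes that reached it was not counted, so these numbers are no result about the members.

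**Figure D1:**
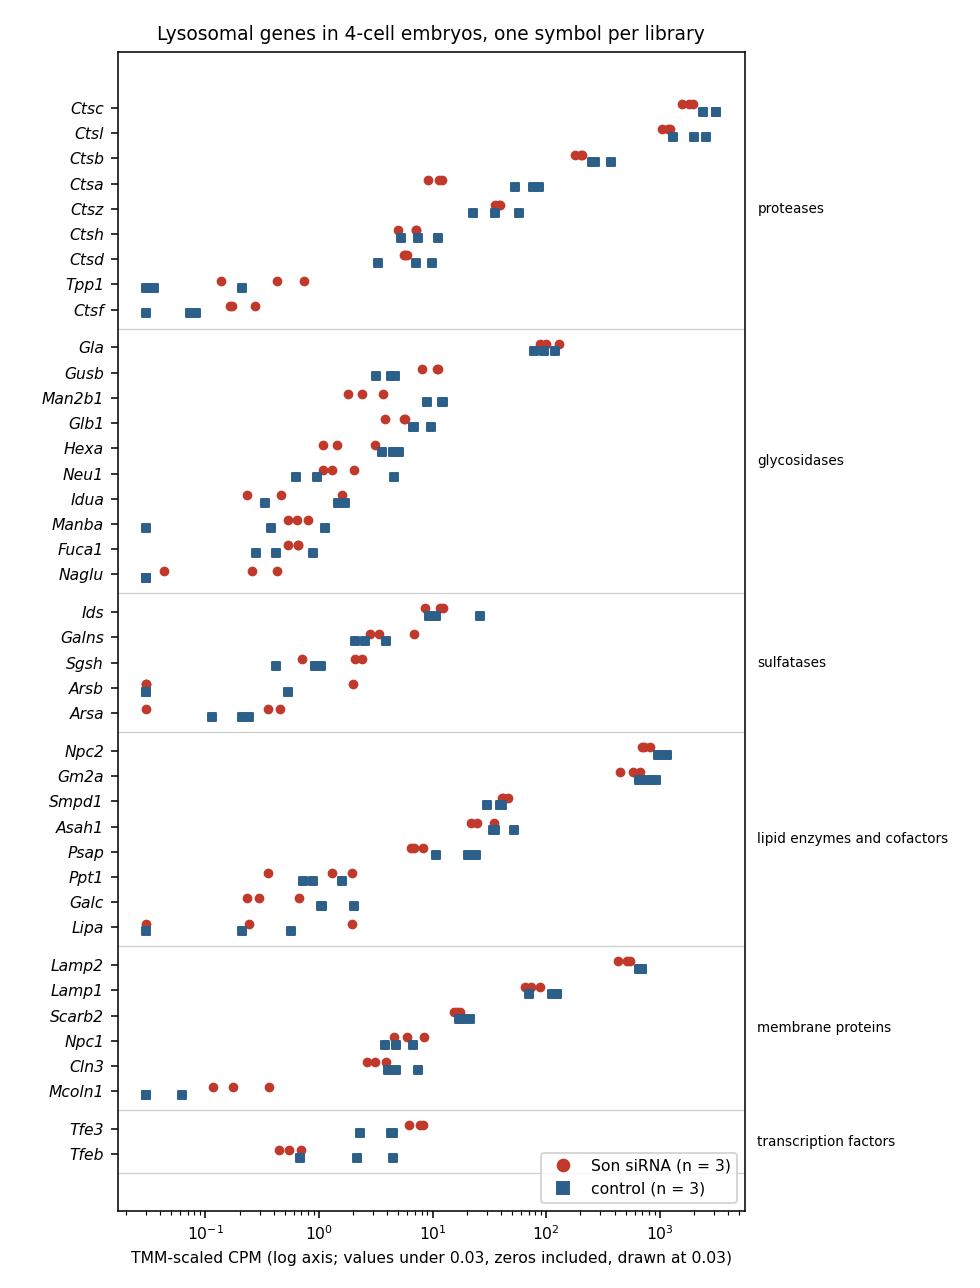
TMM-scaled CPM of the 40 lysosomal genes on a log axis, ordered by role; circles are the 3 Son siRNA libraries, squares the 3 control libraries, and values under 0.03 are drawn at 0.03. Ctsc, Ctsl, Npc2, Gm2a and Lamp2 lie to the right, and the groups of Ctsa and Man2b1 are separated by wide gaps.

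The summed RNA of all 40 members was lower in every siRNA library than in every control library. It was 5038, 5290.5 and 5650.1 CPM in siRNA libraries 1 to 3, against 8203, 7889 and 8543 CPM in control libraries 1 to 3, that is 5326 ± 307 CPM in siRNA libraries and 8212 ± 327 CPM in control libraries (SD, n = 3 each). The 5 most abundant members made up 89.6% of this sum, with 4733 ± 286 CPM in siRNA libraries and 7403 ± 478 CPM in control libraries. The other 35 members summed to 571, 593 and 615 CPM in siRNA libraries and to 782, 972 and 671 CPM in control libraries, again without overlap. Scaled by total counts instead of TMM, an alternative chosen after seeing the data, the 40 members still did not overlap, at 5832, 5412 and 6511 CPM in siRNA libraries and 7037, 8297 and 6922 CPM in control libraries. The other 35 then overlapped, at 661, 607 and 708 CPM in siRNA libraries and 671, 1022 and 543 CPM in control libraries, with control library 3 the lowest of all. No test is given for these sums. Only the total-count values are plain shares of a library's counts, and the TMM values are such shares rescaled between libraries. With total counts the 40 members averaged 5918.5 ± 554 CPM in siRNA libraries and 7419 ± 763 CPM in control libraries. The siRNA mean was then 79.8% of the control mean. Neither scaling gives amounts per embryo, and in bulk RNA fewer cells of a type and less RNA per cell cannot be told apart.

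Of the 40 members, 38 passed edgeR's filter on low counts, while Naglu and Arsb did not. At an adjusted p under 0.05 in edgeR's quasi-likelihood fit, corrected by Benjamini and Hochberg's method over all 17788 genes tested, 2 members fell in Son siRNA embryos, Ctsa and Man2b1, and 0 rose. Over all genes tested 0.899% were called lower and 0.0899% higher. At an unadjusted p under 0.05, 11 members were lower and 2 higher, where 8.86% and 5.88% of all genes tested were. DESeq2's Wald test called 5 members lower (Ctsa, Ctsc, Man2b1, Psap and Tfeb) and 2 higher (Gusb and Naglu) of 39 with an adjusted p, where it called 4.67% of all genes lower and 2.84% higher. The 2 groups of libraries did not overlap for 12 members that were lower and 4 that were higher in siRNA embryos, among the 38 tested, and for 11.6% and 12.1% of all genes tested. The median log2 fold change of the members tested was -0.37, with 23 below 0 and 15 above 0, beside a median of 0.02 and a share below 0 of 48.7% for all genes tested. Without control library 2 this member median was 0.017, and scaling by total counts it was -0.11 while the median of all genes moved by 0.29 on the log2 scale to 0.31.

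Members are described next by level, since low counts give wide errors. Among the 15 members with a mean of 10 CPM or more, 13 had a log2 fold change below 0, against 57.7% of the 6079 genes at that level, and their median was -0.50, against -0.10 for those genes. In 7 of the 15 the siRNA libraries lay wholly below the control libraries, against 19% of genes at that level, and in 0 they lay wholly above, against 10.4%. This median was -0.63 to -0.44 when each library was left out in turn. With total-count scaling it was -0.18, and relative to the median of all genes tested it was -0.52 with TMM and -0.49 with total counts. That reference covers genes of all levels (median 0.02 with TMM) and lies above the -0.10 of genes at this level. Among the 23 tested members under 10 CPM, 10 had a log2 fold change below 0 and the median was 0.23, against 0.15 for all genes under 10 CPM. Related lists are also set out at 10 CPM or more below. There vesicle fusion and sorting genes had medians of -0.52 and -0.51, and the other lists -0.34 to 0.06.

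**Figure D2:**
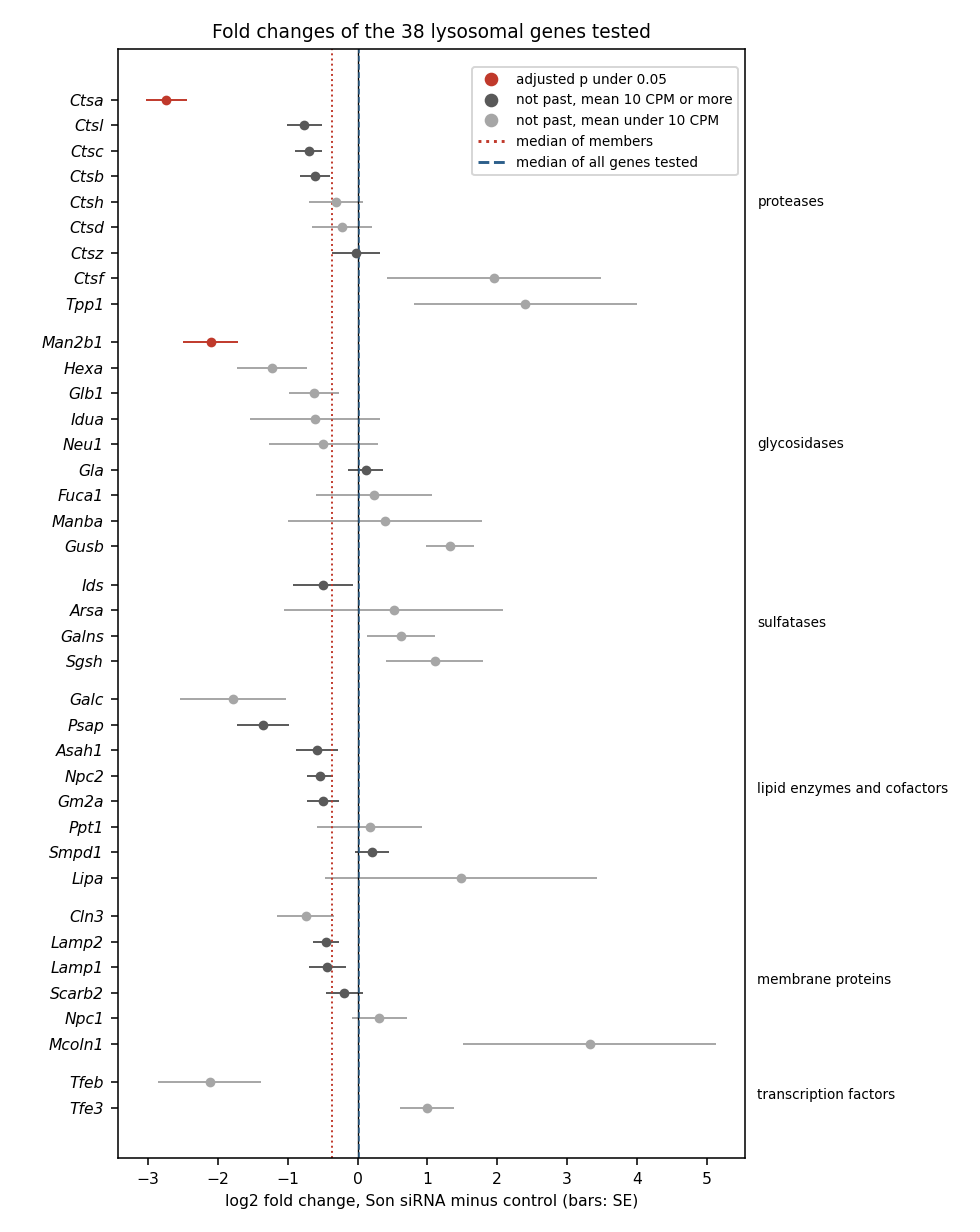
Log2 fold changes (Son siRNA minus control, edgeR) of the 38 members tested, grouped by role, with bars for 1 SE. Ctsa at -2.74 and Man2b1 at -2.10 are the members past the threshold; the dotted line marks the member median of -0.37 and the dashed line the median of all genes tested, 0.02.

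Among the proteases, 7 of 9 had a log2 fold change below 0, 1 passed the threshold, and the median was -0.31. Of all genes tested, 48.7% were below 0 and edgeR called 0.899% lower. Ctsa encodes cathepsin A, a carboxypeptidase that also protects beta-galactosidase and neuraminidase in a complex. It lies at chr2:164832873-164841032 on the plus strand of GRCm38, with 16 exons in its longest coding transcript. Ctsa had 11.4, 11.97 and 9.09 CPM in siRNA libraries 1 to 3, against 77.1, 86.5 and 53.1 CPM in control libraries 1 to 3. Every siRNA library was far below every control library. The mean was 10.8 ± 1.53 CPM in siRNA libraries and 72.2 ± 17.2 CPM in control libraries, (log2 fold change -2.74, SE 0.291, edgeR adjusted p = 0.0122). The partners that Ctsa protects had smaller differences that did not pass the test: Glb1 (beta-galactosidase) stood at -0.62 on the log2 scale (adjusted p = 0.476) and Neu1 (neuraminidase) at -0.49 (adjusted p = 0.847). Exons of Ctsa overlap those of its neighbours over 17.4% of their length, and the libraries carry no strand. The neighbours were much lower than Ctsa in control embryos: Neurl2 had 5.53 ± 1.62 CPM in siRNA libraries and 5.63 ± 1.71 CPM in control libraries, and Pltp 0.496 ± 0.116 CPM in siRNA libraries and 0.214 ± 0.0876 CPM in control libraries. Without siRNA library 1, 2 or 3, Ctsa kept log2 fold changes of -2.77, -2.82 and -2.62 with edgeR adjusted p = 0.171, 0.0709 and 0.149.

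The abundant cysteine proteases had smaller differences. Ctsc, cathepsin C, which removes dipeptides and activates other proteases, had 1560.3, 1821 and 1956 CPM in siRNA libraries, against 2416, 3112 and 3145 CPM in control libraries. The groups did not overlap, with log2 fold change -0.70 (SE 0.195), an edgeR adjusted p of 0.132 and a DESeq2 adjusted p of 0.0433. With 1 library left out, DESeq2 called Ctsc in 1 of 6 sets, that without control library 1. Ctsl, cathepsin L, an endopeptidase, had 1037, 1183 and 1223 CPM in siRNA libraries, against 2551, 1311 and 1983 CPM in control libraries. Control library 2 lay close to the siRNA libraries, so that the log2 fold change was -0.76 (SE 0.253, edgeR adjusted p = 0.201) with all libraries and -0.98 (edgeR adjusted p = 0.0499) without that library. Exons of Ctsl overlap those of the predicted genes Gm47123 and Gm49230 over 26.9% of their length. Ctsb, cathepsin B, had 205, 179 and 204 CPM in siRNA libraries, against 254, 373 and 269 CPM in control libraries. The groups were again separate, with a log2 fold change of -0.61 (edgeR adjusted p = 0.235). Exons of Ctsb overlap those of Fdft1 over 12.8% of their length, and Fdft1 averaged 111 ± 8.13 CPM in siRNA libraries and 155 ± 26.1 CPM in control libraries (log2 fold change -0.48, adjusted p = 0.343); reads of the shared stretch cannot be told apart. The other 5 proteases (the carboxypeptidase Ctsz, the aminopeptidase Ctsh, the aspartic protease Ctsd, Ctsf and the tripeptidyl peptidase Tpp1) had adjusted p of 0.548 to 0.986, and Ctsf and Tpp1, with means of 0.127 and 0.257 CPM, had the 2 log2 fold changes above 0.

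**Figure D3:**
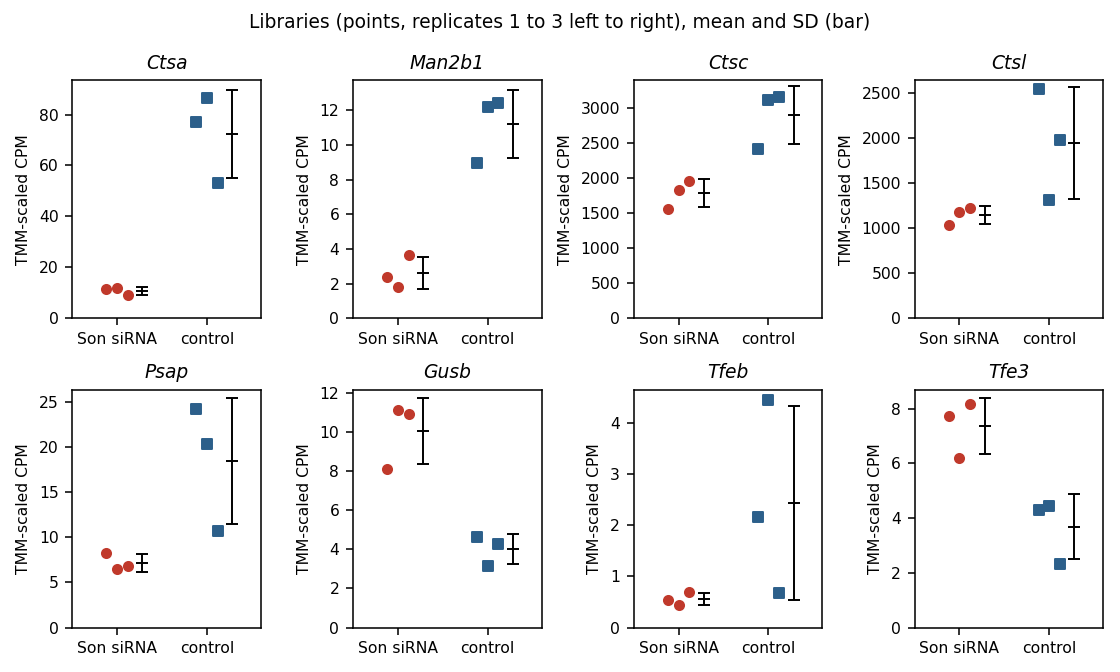
TMM-scaled CPM per library of 8 members in Son siRNA (circles, left) and control embryos (squares, right), with the mean and SD of each group; each axis starts at 0. Ctsa, Man2b1, Ctsc, Ctsl and Psap are lower and Gusb and Tfe3 higher in all 3 siRNA libraries than in all 3 control libraries, while Tfeb overlaps at control library 3.

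Among the glycosidases, 9 of 10 were tested, 5 were below 0 and 4 above 0, 1 passed the threshold, and the median was -0.49. The shares over all genes tested were 48.7% below 0 and 0.899% called lower by edgeR. Man2b1 encodes the lysosomal acid alpha-mannosidase, which trims mannose from N-linked glycans. It lies at chr8:85083270-85098282 on the plus strand, has 24 exons and shares no exonic bases with another gene. Man2b1 had 2.39, 1.79 and 3.64 CPM in siRNA libraries, against 8.93, 12.2 and 12.4 CPM in control libraries. The groups were well separated, with means of 2.61 ± 0.946 CPM in siRNA libraries and 11.2 ± 1.96 CPM in control libraries, or 23.3% of control (log2 fold change -2.10, SE 0.395, edgeR adjusted p = 0.0494). This call was close to the threshold: without siRNA library 1, 2 or 3 the edgeR adjusted p was 0.312, 0.181 and 0.203, and without control library 1, 2 or 3 it was 0.0793, 0.0605 and 0.0897. DESeq2's test called both Ctsa and Man2b1 lower in all 6 sets of 5 libraries.

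**Figure D4:**
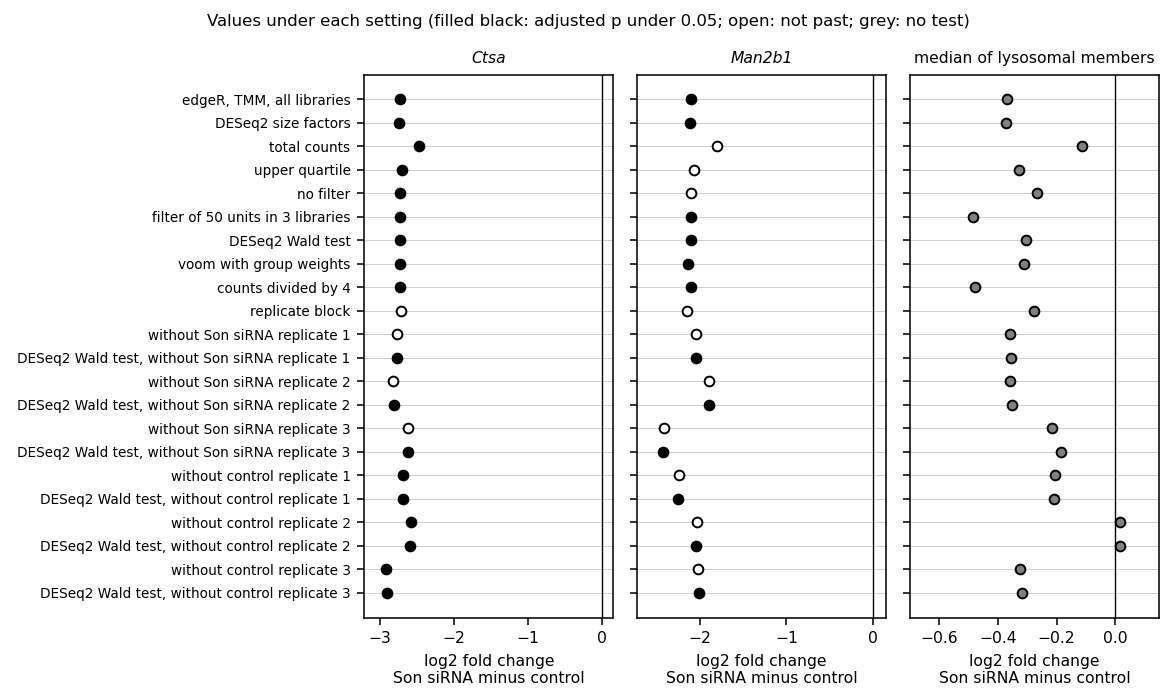
Log2 fold changes (Son siRNA minus control) of Ctsa and Man2b1 and the member median under each setting; filled points have an adjusted p under 0.05, open points do not, and grey points have no test. Ctsa and Man2b1 stay below 0 throughout, and the member median reaches 0.017 without control library 2.

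Gusb, beta-glucuronidase, differed the other way. It had 8.09, 11.1 and 10.9 CPM in siRNA libraries, against 4.63, 3.14 and 4.26 CPM in control libraries. Every siRNA library was above every control library, with log2 fold change 1.32 (SE 0.345), an edgeR adjusted p of 0.114 and a DESeq2 adjusted p of 0.0016. DESeq2 called Gusb in 5 of the 6 sets of 5 libraries, all but the set without siRNA library 3. The most abundant glycosidase, Gla (alpha-galactosidase A), had 88.4, 99.1 and 129 CPM in siRNA libraries, against 78.1, 118.5 and 95.3 CPM in control libraries. Its groups overlapped, at 0.12 on the log2 scale (SE 0.248, edgeR adjusted p = 0.897). Hexa, the alpha subunit of beta-hexosaminidase, had 1.44, 3.08 and 1.09 CPM in siRNA libraries and 4.45, 5.05 and 3.61 CPM in control libraries. The groups did not overlap, but the log2 fold change of -1.23 had an edgeR adjusted p of 0.302. Naglu, which cleaves N-acetylglucosamine from heparan sulfate, was listed at 31, 5 and 57 units in siRNA libraries and at 0 in all 3 control libraries, where 0 allows up to 0.106 to 0.125 CPM (DESeq2 adjusted p = 0.0295). DESeq2 called Naglu without any 1 of the control libraries, and not without any 1 of the siRNA libraries. Idua, Fuca1 and Manba, which act on other sugar linkages, had means of 0.571 to 0.967 CPM and overlapping groups.

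The sulfatases, which remove sulfate from glycosaminoglycans and sulfatides, had 0 members past the threshold in either direction by edgeR and by DESeq2, and 0 at an unadjusted p under 0.05. Only 4 of the 5 were tested by edgeR, and 8.86% of all genes tested were lower and 5.88% higher at that unadjusted p. Ids, iduronate sulfatase, had 12.3, 8.60 and 11.7 CPM in siRNA libraries, against 25.9, 9.26 and 10.7 CPM in control libraries. Control library 1 alone was high, and the log2 fold change of -0.50 (adjusted p = 0.670) was 0.12 without it. Galns, which acts on keratan sulfate, had 2.82, 3.40 and 6.81 CPM in siRNA libraries and 2.09, 3.85 and 2.53 CPM in control libraries, overlapping groups with a log2 fold change of 0.62 (adjusted p = 0.620). Sgsh, heparan sulfamidase, had 2.08, 0.700 and 2.37 CPM in siRNA libraries and 0.416, 0.924 and 1.05 CPM in control libraries, also overlapping (log2 fold change 1.11, adjusted p = 0.523). Arsa, arylsulfatase A, averaged 0.229 CPM over all libraries, and Arsb, arylsulfatase B, was listed above 0 in siRNA library 1 and control library 2 only.

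Among the lipid enzymes and cofactors, 5 of 8 were below 0, with a median of -0.52, and 0 passed edgeR's threshold, while 3 were lower at an unadjusted p under 0.05 and DESeq2 called 1 lower. Over all genes, 48.7% were below 0, 8.86% were lower at that unadjusted p and DESeq2 called 4.67% lower. Psap, prosaposin, is the precursor of the saposins that help enzymes reach sphingolipids. It had 8.30, 6.44 and 6.80 CPM in siRNA libraries, against 24.2, 20.3 and 10.7 CPM in control libraries. The groups did not overlap, with log2 fold change -1.36 (SE 0.371), an edgeR adjusted p of 0.127 and a DESeq2 adjusted p of 0.00713. DESeq2 called Psap in 3 of the 6 sets of 5 libraries, those without siRNA library 1, control library 2 and control library 3. Npc2, which hands cholesterol to Npc1 for export, had 690.4, 819 and 728 CPM in siRNA libraries, against 967, 1142 and 1152 CPM in control libraries. These groups were also separate, at 746 ± 66.0 CPM in siRNA libraries and 1087 ± 104 CPM in control libraries (log2 fold change -0.54, SE 0.184, edgeR adjusted p = 0.211). Gm2a, the activator that presents gangliosides to hexosaminidase A, had 666, 443 and 577 CPM in siRNA libraries and 784, 655 and 935 CPM in control libraries. Its groups overlapped by a narrow margin (log2 fold change -0.49, adjusted p = 0.357).

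Galc, which degrades galactosylceramide, was among the members under 1 CPM on average. It had 0.231, 0.666 and 0.295 CPM in siRNA libraries and 1.05, 2.02 and 1.05 CPM in control libraries, in separate groups (log2 fold change -1.79, SE 0.756, edgeR adjusted p = 0.317). Smpd1, acid sphingomyelinase, had 41.3, 46.0 and 40.4 CPM in siRNA libraries and 39.4, 40.7 and 30.3 CPM in control libraries. These overlapped, and the log2 fold change was 0.21 (adjusted p = 0.771). Asah1 (acid ceramidase), Lipa (acid lipase) and Ppt1 (a thioesterase that removes palmitate from proteins) also overlapped between groups, with log2 fold changes of -0.59, 1.48 and 0.17.

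Among the membrane proteins, 4 of 6 were below 0, with a median of -0.31, and 0 passed the threshold by edgeR or DESeq2, with 1 lower at an unadjusted edgeR p under 0.05. For all genes tested these shares were 48.7% below 0 and 8.86% lower at that unadjusted p. Lamp2, which also serves as a receptor in chaperone-mediated autophagy, had 514, 432 and 552 CPM in siRNA libraries, against 703, 697 and 658 CPM in control libraries. The groups did not overlap, at 499.5 ± 61.5 CPM in siRNA libraries and 686 ± 24.2 CPM in control libraries (log2 fold change -0.46, SE 0.187, edgeR adjusted p = 0.301). Lamp1, the other major glycoprotein of the lysosomal membrane, had 64.6, 88.7 and 73.6 CPM in siRNA libraries and 111, 124 and 70.5 CPM in control libraries. Control library 3 lay within the siRNA range, and the log2 fold change was -0.43 (adjusted p = 0.520). Scarb2, which carries glucocerebrosidase to the lysosome, had 17.3, 16.5 and 15.5 CPM in siRNA libraries and 18.1, 21.2 and 17.2 CPM in control libraries. These groups overlapped, and the log2 fold change was -0.19 (adjusted p = 0.817). Scaled by total counts it was 0.086, but relative to the median of all genes it was -0.22 with TMM and -0.23 with total counts. Npc1, the cholesterol transporter, had a log2 fold change of 0.31 with overlapping groups, and Cln3, a membrane protein of the late endosome and lysosome, of -0.74 with separate groups (adjusted p = 0.447). Mcoln1, a lysosomal calcium channel, was listed at 14, 42 and 23 units in siRNA libraries and at 6, 0 and 0 units in control libraries, too few to read a fold change from.

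The transcription factors of the lysosomal programme differed in opposite directions, and neither passed edgeR's threshold. Tfeb had 0.545, 0.444 and 0.687 CPM in siRNA libraries, against 2.16, 4.45 and 0.675 CPM in control libraries. Control library 3 fell within the siRNA range, so the groups overlapped, and the log2 fold change of -2.12 (SE 0.740) had an edgeR adjusted p of 0.223 and a DESeq2 adjusted p of 0.04996. Without control library 2 the edgeR log2 fold change was -1.34 (adjusted p = 0.377), and DESeq2 called Tfeb in 1 of the 6 sets of 5 libraries, that without control library 3. Tfe3 had 7.73, 6.20 and 8.16 CPM in siRNA libraries, against 4.30, 4.45 and 2.32 CPM in control libraries. Every siRNA library was above every control library, with log2 fold change 0.998 (SE 0.390), an edgeR adjusted p of 0.277 and a DESeq2 adjusted p of 0.0849. Among the members with a promoter window, the 9 tested with TCACGTG had a median log2 fold change of -0.23, with 5 below 0 and a range of -2.74 (Ctsa) to 3.32 (Mcoln1, at or under 6 units in every control library). The 24 tested without it had a median of -0.47, with 15 below 0 and a range of -2.12 to 2.40. Ctsa and Gla, whose windows are printed above with 2 cores each, stood at -2.74 and 0.12. Ctsd, Cln3 and Mcoln1, also with 2 cores in a window, stood at -0.23, -0.74 and 3.32, and Lamp1, with 4, at -0.43.

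The members' gene structures were compared because Son acts in splicing. The 38 tested members had a median of 10 exons, a median intron of 892 bases and 14.6 kb of intron in all, against 9 exons, 1553 bases and 19.4 kb for the 14013 protein-coding genes tested. Across the members the log2 fold change had a Spearman correlation of -0.04 with median intron length, -0.22 with total intron length and -0.15 with the number of exons (n = 38 genes, which are not independent replicates and share the same 6 libraries). For the 15 members with a mean of 10 CPM or more, also not independent, these correlations were 0.11, -0.03 and -0.43. Over 13575 protein-coding genes tested that have introns, the same correlations were 0.11, 0.052 and -0.058. The median intron was 231 bases in Ctsa and 217 bases in Man2b1. It was 117 bases in Vps16, a gene of the other lists described below, with 24 exons and a log2 fold change of -2.38. Members with shorter introns than Man2b1 had low levels. Tpp1, Arsa and Ctsf, with 181, 130.5 and 103 bases, averaged 0.257, 0.229 and 0.127 CPM and had log2 fold changes above 0. Idua, with 116 bases and 0.967 CPM, stood at -0.61. Whether intron length has a part in the differences was not tested. Exons of 24 members overlap no other gene and those of 16 do, 8 of them over more than 10% of their length.

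Other genes of lysosome assembly and autophagy were taken from 6 lists with 101 entries, 97 of them tested. By edgeR 1 of these fell and 0 rose, where 0.899% and 0.0899% of all genes tested were called. At an unadjusted p under 0.05 it had 17 lower and 6 higher, where 8.86% and 5.88% of all genes were. DESeq2 put 9 past its threshold as lower and 2 as higher, where 4.67% and 2.84% of all genes were, and the median log2 fold change was -0.03. The 1 that fell was Vps16, a subunit of the HOPS and CORVET tethering complexes that bring endosomes, autophagosomes and lysosomes to fusion. It had 1.77, 2.28 and 3.84 CPM in siRNA libraries, against 10.8, 16.2 and 14.1 CPM in control libraries (log2 fold change -2.38, SE 0.407, edgeR adjusted p = 0.0402), without overlap. With any 1 library left out its edgeR adjusted p was 0.0513 to 0.277. Of the 11 vesicle fusion genes tested, 10 were below 0, where 48.7% of all genes tested were, with a median of -0.33. With total-count scaling this median was -0.057, and relative to the median of all genes it was -0.36 with TMM and -0.37 with total counts. Tested medians were 0.03 for the V-ATPase that acidifies the lysosome (16 genes), -0.04 for mannose phosphate tagging and sorting (10 genes), -0.21 for other hydrolases and membrane proteins (21 genes), 0.20 for the Rag, Ragulator and mTORC1 genes that sense nutrients at the lysosome (19 genes) and -0.09 for autophagy (20 genes). Relative to the median of all genes these 5 medians were 0.0049, -0.061, -0.24, 0.17 and -0.11, and with total-count scaling 0.010, -0.085, -0.12, 0.14 and -0.13, in the same order. Among genes with a mean of 10 CPM or more, vesicle fusion had a median of -0.52, with 7 of 7 below 0. At that level tagging and sorting had -0.51 (3 of 4), other hydrolases and membrane proteins -0.34 (7 of 10) and autophagy -0.09 (9 of 16). The V-ATPase had 0.03 (7 of 16) and the Rag, Ragulator and mTORC1 genes 0.06 (4 of 10). The members stood at -0.50 (13 of 15), beside -0.10 (57.7% below 0) for all genes at that level.

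In each of the 5 lists in which edgeR called no gene, the gene with the smallest unadjusted edgeR p had a lower mean in siRNA libraries. These genes were picked by that p, so they do not describe their lists as a whole. Over all genes tested, too, calls were mostly lower, with 160 lower and 16 higher by edgeR. Ulk1, the kinase that starts autophagy, had 30.6, 26.1 and 35.1 CPM in siRNA libraries, against 103, 221 and 69.7 CPM in control libraries, without overlap (log2 fold change -2.10, edgeR adjusted p = 0.0554). Atp6ap1, an accessory subunit of the V-ATPase, averaged 22.9 ± 5.64 CPM in siRNA libraries and 54.9 ± 16.9 CPM in control libraries (edgeR adjusted p = 0.105). Mlst8, a subunit of both mTOR complexes, averaged 8.34 ± 1.88 CPM in siRNA libraries and 19.8 ± 3.04 CPM in control libraries (edgeR adjusted p = 0.106). None of these passed edgeR's threshold, while DESeq2 called all 3 lower, with adjusted p of 7.98e-05 for Ulk1, 0.00539 for Atp6ap1 and 0.00157 for Mlst8. Gaa, the acid alpha-glucosidase that degrades glycogen, averaged 6.67 ± 0.987 CPM in siRNA libraries and 16.4 ± 5.34 CPM in control libraries (edgeR adjusted p = 0.129, DESeq2 adjusted p = 0.00674). Gnptg, a subunit of the enzyme that adds the mannose phosphate tag, averaged 2.60 ± 0.766 CPM in siRNA libraries and 6.42 ± 2.74 CPM in control libraries (edgeR adjusted p = 0.244, DESeq2 adjusted p = 0.0746).

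**Figure D5:**
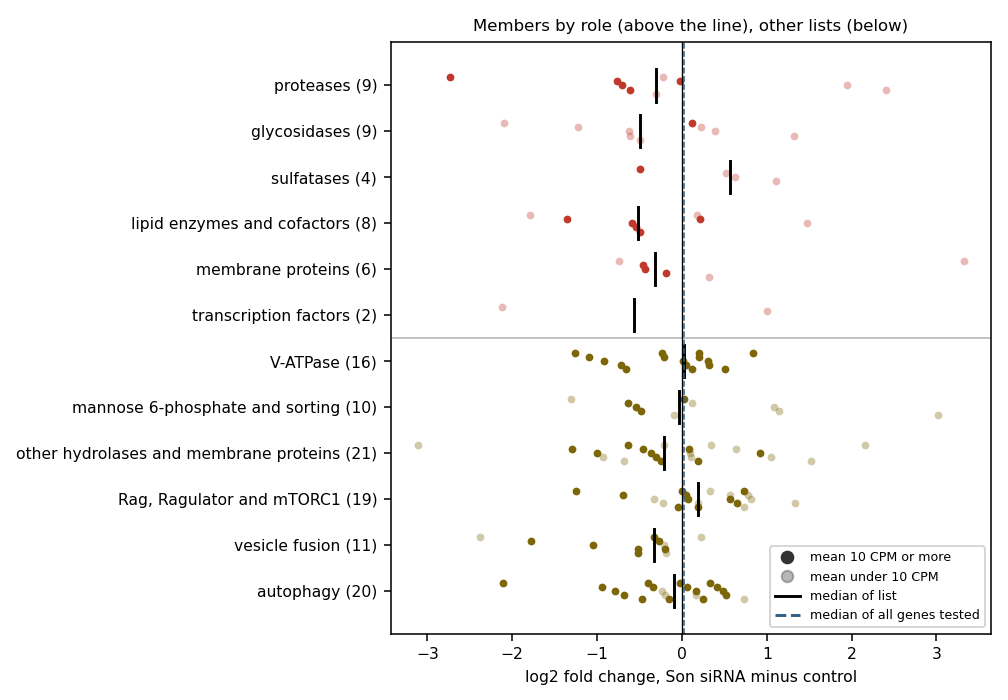
Log2 fold changes (Son siRNA minus control) of the members by role, above the grey line, and of the other lysosomal and autophagy lists, below it; each point is a gene, dark points have a mean of 10 CPM or more, and short black bars are medians. The dark points of the members lie mostly left of 0, and those of the vesicle fusion genes all do. Vps16 at -2.38 is the lowest point of the vesicle fusion genes.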

How the data were processed

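RNA was measured in 3 Son siRNA and 3 control libraries of mouse 4-cell embryos, grouped and numbered by their titles. HISAT2 2.0.5, StringTie 1.3.3b and GRCm38 were used upstream, per the submitters' processing notes; the sources used here name no annotation release or counting step. For each library the authors deposited a table of whole-number estimated counts for 46072 genes, not normalized. They were used as deposited. The worth of a read pair is not stated, and 4 units were assumed. The floor of 3 read pairs, in units and in CPM, and the alternative with counts divided by 4 rest on this.

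The test was edgeR 4.0.16 (R 4.3.3) over the whole table: filterByExpr, TMM scaling, then glmQLFit with glmQLFTest for Son siRNA minus control, no block, Benjamini-Hochberg adjustment and a threshold of 0.05. Alternatives were DESeq2 1.42.0, limma 3.58.1 (voom with group weights), other scalings and filters, counts divided by 4, a replicate block and leaving out each library; leaving out libraries under DESeq2, and summed levels under total counts, were added after seeing the data. GENCODE vM21 gave coordinates and exons, matched by Ensembl identifier for 45137 genes and all 40 members.

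Members and lists were chosen with earlier results of these data known, so no list has a test. Members described with every library's value were those past the threshold, those with an unadjusted edgeR p under 0.05, the 3 most abundant of each role, and Tfeb, Tfe3 and Lamp1. Naglu, Arsb, Mcoln1, Glb1 and Neu1 were added after their values were seen. From the other lists, genes past the threshold or, where none passed, the smallest unadjusted p were named.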

Additional observations from a re-analysis of the deposited data

How the results depend on the processing

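Across the 21 alternatives, the 21 members described in full gave 441 values, of which 401 kept their direction and their side of the threshold, 14 lost a call, 19 gained one and 7 changed sign. The changes of sign were Scarb2 under total-count scaling (0.086, where the median of all genes tested was 0.31, so that relative to it Scarb2 was -0.23, beside -0.22 with TMM), Gla without siRNA library 3 (-0.051 by edgeR, -0.054 by DESeq2) and without control library 1 (-0.017 and -0.025), and Ids without control library 1 (0.12 and 0.11); by edgeR with 1 library left out, Gla ranged from -0.051 to 0.29 and Ids from -0.75 to 0.12. The number of members lower was 1 with total counts, upper-quartile scaling or no filter, 5 with DESeq2 (where 2 were higher), and 0 with the replicate block; with 1 library left out it was 0 to 4, and the number higher 0 to 4. The member median was -0.11 with total counts and -0.36 to 0.017 with 1 library left out, DESeq2 giving -0.18 without siRNA library 3, -0.21 without control library 1 and 0.017 without control library 2. Counts over all genes ranged from 0 to 907 lower, the highest with DESeq2. Total-count scaling gave 35 lower and 7 higher, no filter 91 and 9, the filter of 50 units in 3 libraries 245 and 43, voom 330 and 43, and division by 4 279 and 51.

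The labels do not say that replicate numbers pair libraries. Deviations from the group means correlated at -0.293, -0.335 and 0.0552 for same-numbered libraries over 6079 genes, and at 0.424 for siRNA library 2 with control library 1. Deviations from a mean of 3 libraries are tied to each other, so these values cannot decide whether libraries were paired. With the replicate block the adjusted p was 0.0617 for Son (log2 fold change -3.29) and Ctsa, 0.140 for Man2b1 and 0.0968 for Vps16. Son had log2 fold changes of -3.50 to -3.12 with 1 library left out and missed the threshold without siRNA library 1, 2 or 3 (adjusted p = 0.0648, 0.0709 and 0.136). Man2b1 also missed it with total counts (0.126), upper-quartile scaling (0.0543) and no filter (0.0679). The cause of these changes was not tested. With 3 libraries a group, members under 1 CPM rest on few reads, and a p that misses the threshold does not show equal levels.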
